A study of Homo sapiens with 6 samples.

Results

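The 10 genes YAP1, WWTR1, TEAD1, LATS1, LATS2, CCN1, CCN2, ANKRD1, AMOTL1 and AMOTL2 were followed by their symbols in the read counts of 64253 genes. They encode coactivators, a transcription factor, kinases, junction proteins and targets of the Hippo pathway. All 10 were found, CCN1 and CCN2 under the gene identifiers formerly named CYR61 and CTGF. The libraries came from PC-3, an established human prostate cancer cell line, carrying a lentiviral shRNA against CdGAP (shCdGAP, 3 libraries) or a control shRNA (shCon, 3 libraries). CdGAP, encoded by ARHGAP31, is a GTPase-activating protein that switches off Rac1 and Cdc42. The methods describe 3 independent samples per group and state that the depleted PC-3 cells were grown from single cells into clones. The clone that was sequenced is not named and single-cell cloning is not stated for the control cells, so CdGAP depletion and a difference between clones cannot be told apart in this design.

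In the Hippo pathway the kinases LATS1 and LATS2 phosphorylate the coactivators YAP (YAP1) and TAZ (WWTR1), which then remain in the cytoplasm or are degraded. Unphosphorylated YAP and TAZ enter the nucleus, bind TEAD transcription factors and raise transcription of genes such as CCN1, CCN2 and ANKRD1. LATS2 and AMOTL2 are themselves transcribed under YAP, so that 2 restraints of the pathway are also among its targets. Cell shape and adhesion are known inputs to YAP, whose activity is set mainly by phosphorylation and location. Read counts measure neither of these.

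The short word GGAATG, and its reverse complement CATTCC, is the core of the sequence that TEAD factors recognise. Promoter sequences of RefSeq (GRCh38.p14) were matched by symbol for 8 of the 10 genes, with no entry for CCN1 and TEAD1. In the 250 bases before a transcription start, either word, and so the motif on either strand, was present in 11.9% of 35116 promoters of all genes. It was present in 4 of the 8 matched genes, namely YAP1, CCN2, ANKRD1 and AMOTL2, and in 4 of the 11 promoters of the 8 genes. The CCN2 promoter is shown because it held 3 copies, at 169, 104 and 95 bases before the start, and the YAP1 promoter because YAP1 was the coactivator whose reads differed between the groups. They lie at chr6:131951373-131951622 (minus strand) and chr11:102110197-102110446 (plus strand). ANKRD1 had GGAATG at 220 and 128 bases before its start, and AMOTL2 had CATTCC at 69 bases before one of its starts. For these genes 30 bases around each copy are given, at chr10:90921290-90921319, chr10:90921198-90921227 and chr3:134374499-134374528, all on the minus strand. Capitals mark the copies, and each sequence runs from 5′ to 3′ along the strand of its gene.
CCN2: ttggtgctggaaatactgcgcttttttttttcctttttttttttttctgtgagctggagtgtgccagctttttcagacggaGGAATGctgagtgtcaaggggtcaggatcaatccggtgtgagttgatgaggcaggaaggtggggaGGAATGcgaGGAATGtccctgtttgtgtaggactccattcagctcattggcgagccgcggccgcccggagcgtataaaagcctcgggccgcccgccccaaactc
YAP1: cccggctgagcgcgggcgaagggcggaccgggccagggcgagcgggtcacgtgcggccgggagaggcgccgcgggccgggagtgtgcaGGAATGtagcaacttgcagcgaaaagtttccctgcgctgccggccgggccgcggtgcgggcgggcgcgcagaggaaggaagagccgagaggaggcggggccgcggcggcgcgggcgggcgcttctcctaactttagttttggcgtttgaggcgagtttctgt
ANKRD1, 220 bases before the start: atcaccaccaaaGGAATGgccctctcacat
ANKRD1, 128 bases before the start: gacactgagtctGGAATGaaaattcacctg
AMOTL2, 69 bases before the start: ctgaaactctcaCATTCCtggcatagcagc
A match to these letters does not show that a factor binds there.

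The libraries held 34011175 to 43154039 counted reads in shCdGAP and 33182796 to 42786971 in shCon cells. ARHGAP31 was lower in every shCdGAP library, with 926 to 1181 reads against 1923 to 2557. Its log2 fold change was -1.14 (edgeR adjusted p = 8.75e-08), which is -54.7% after scaling for library size. The paper reports a larger reduction of CdGAP mRNA and protein for a depleted PC-3 clone, measured by qPCR and immunoblot. The epithelial genes KRT8, KRT18 and EPCAM were present at 81.7 CPM or more. EPCAM differed between the groups, with 203 to 223 CPM in shCdGAP and 81.7 to 84.4 CPM in shCon cells. KLK3, which PC-3 cells are known to lack, had no read in any library. Of 6 markers of other cell types, 4 (PTPRC, CD3E, VWF and DES) had at most 3 reads in every library, whereas PECAM1 and COL1A1 were detected. Their summed level was 58.6 to 65.3 CPM (reads scaled to a common library size of 1e6) in shCdGAP and 23.0 to 24.5 in shCon cells, mostly COL1A1, and its part in the results was not tested. shCdGAP replicate 2 stood apart. A chi-square over genes, per degree of freedom, was 27.2 and 33.3 between it and replicates 1 and 3, against 3.22 between these and 2.59 to 6.94 between shCon libraries. In 8 of the 9 tested genes of the group it lay farther from the mean of replicates 1 and 3 than these lay from each other. The share of all tested genes for which this holds was not counted. Values without this library are therefore given beside the counts and the main fold changes.

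Of the 10 genes, 9 had enough reads to be tested. YAP1, LATS2, CCN1, CCN2, AMOTL1 and AMOTL2 fell in CdGAP-depleted cells and none rose, at an adjusted p under 0.01 by edgeR's quasi-likelihood test over 16439 genes. WWTR1, TEAD1 and LATS1 did not pass, and ANKRD1 was almost without reads. Of all tested genes, 46.2% passed the same threshold, 22% lower and 24.1% higher in shCdGAP cells. The median log2 fold change of the 9 genes was -0.34, against 0.01 over all tested genes. In 8 of the 9 genes the groups did not overlap, which was so for 67.1% of tested genes. In bulk RNA, fewer cells expressing a gene and less RNA per cell cannot be told apart. When shCdGAP replicate 2 was left out, 8 of the 9 genes passed, 6 lower and 2 higher, where 60.0% of all tested genes passed, 30% in each direction.

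**Figure D1:**
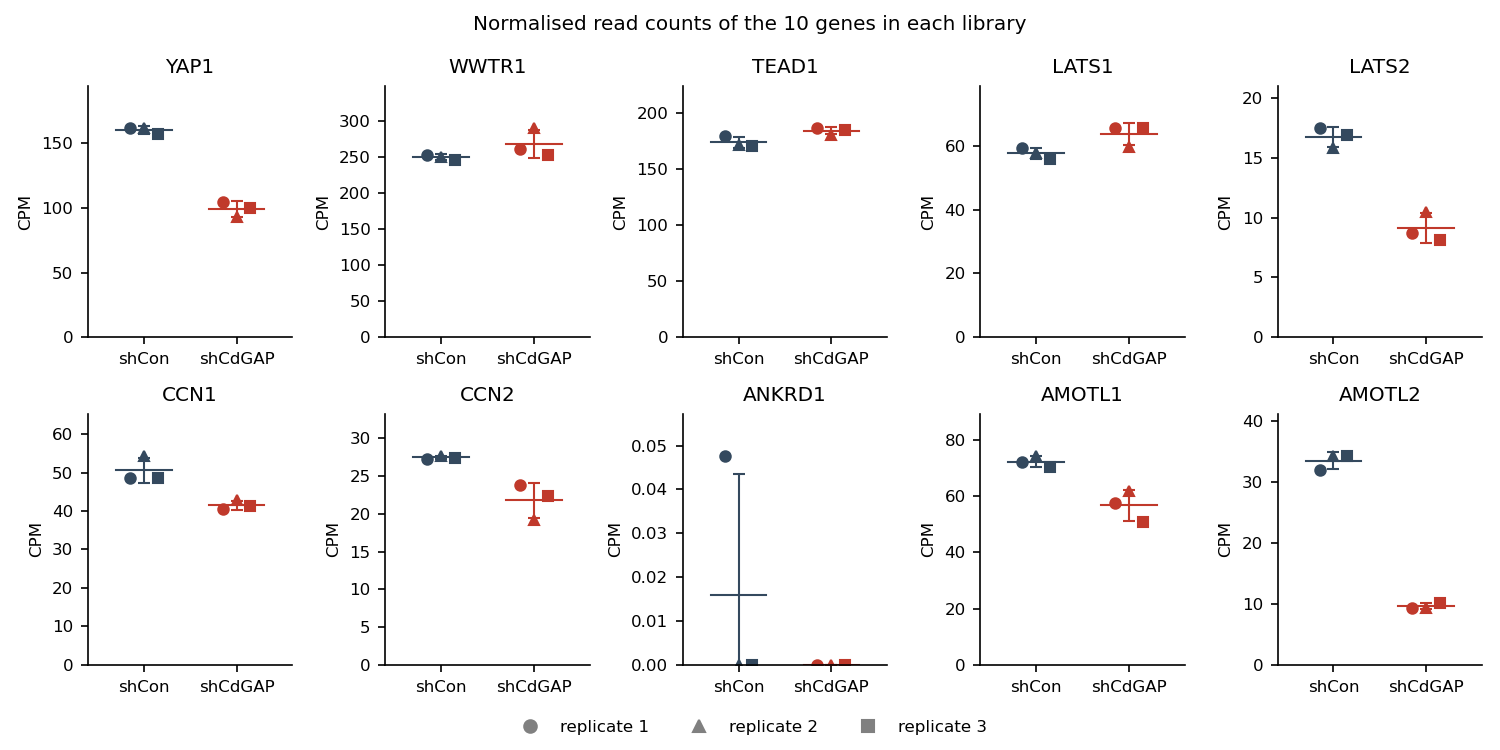
Normalised read counts (CPM, linear axes from 0) of the 10 genes in each of 6 libraries, with symbols for the replicate number, horizontal lines at the group mean and bars of 1 SD (n = 3). YAP1, LATS2 and AMOTL2 show the widest gaps, relative to their levels, between shCon (dark) and shCdGAP (red), and ANKRD1 is above 0 in shCon replicate 1 alone.

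Of the 2 coactivators, YAP1 fell and WWTR1 did not pass the test. YAP1 (ENSG00000137693, chr11:102110461-102233423) had 105, 93.0 and 100 CPM in shCdGAP replicates 1, 2 and 3 and 162, 162 and 157 CPM in the shCon replicates. All shCdGAP libraries lay below all shCon libraries. The means were 99.3 ± 6.01 and 160 ± 2.69 CPM (SD, n = 3 each), with a log2 fold change of -0.69 ± 0.0474 (standard error, edgeR adjusted p = 3.59e-06), which is -38% in CPM, and -0.65 without shCdGAP replicate 2. WWTR1 (ENSG00000018408, chr3:149517235-149736714), which encodes TAZ, had 261, 290 and 252 CPM in shCdGAP and 253, 250 and 245 CPM in shCon libraries. The groups overlapped, and replicate 2 was the highest of the shCdGAP libraries. The log2 fold change of WWTR1 was 0.10 ± 0.0511 (standard error, edgeR adjusted p = 0.110), and 0.03 without shCdGAP replicate 2 (adjusted p = 0.243).

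Per length, YAP1 was the lower of the pair in every library. In RPKM, the CPM divided by the gene length in kilobases, the log2 ratio of YAP1 to WWTR1 was -0.90, -1.22 and -0.92 in shCdGAP and -0.23, -0.21 and -0.22 in shCon libraries. The group means differed by -0.79, and the ranges did not overlap. The smallest two-sided p of an exact permutation test with 3 libraries in each group is 0.1, which was its value here (0.133 adjusted over 4 ratios). YAP1 thus made up 33.2% ± 2.74 of the summed RPKM of both coactivators in shCdGAP and 46.2% ± 0.188 in shCon cells (SD, n = 3 each). Their sum was 47.6 ± 1.66 RPKM in shCdGAP and 55.1 ± 0.875 RPKM in shCon cells.

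TEAD1 (ENSG00000187079, chr11:12674591-12944483), a DNA-binding partner of YAP and TAZ, had 187, 181 and 185 CPM in shCdGAP and 180, 172 and 171 CPM in shCon libraries. Every shCdGAP library was above every shCon library by a small margin. Its log2 fold change of 0.08 (standard error 0.0350) did not pass, with an adjusted p of 0.0702 by edgeR, and without shCdGAP replicate 2 the fold change of 0.09 did (adjusted p = 0.00486). The related factors TEAD2 and TEAD4 fell. TEAD2 went from 74.2 ± 1.26 to 52.5 ± 3.32 CPM and TEAD4 from 33.9 ± 0.922 to 23.7 ± 0.829 CPM (SD, n = 3 each), with log2 fold changes of -0.50 and -0.52 (adjusted p = 3.67e-05 and 2.70e-05 by edgeR). TEAD3 was low in both groups, at 4.60 ± 0.458 and 4.64 ± 0.258 CPM, and the groups overlapped.

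Per length, the TEAD family as a whole was lower in CdGAP-depleted cells while TEAD1 took a larger part of it. The sum of TEAD1 to TEAD4 was 46.5, 48.9 and 46.7 RPKM in shCdGAP and 58.6, 58.8 and 57.0 RPKM in shCon libraries. TEAD1 made up 37.6% ± 1.63 of this sum in shCdGAP and 28.9% ± 0.630 in shCon cells (SD, n = 3 each). TEAD2 made up 37.2% ± 1.34 and 42.8% ± 0.342, so that TEAD1 and TEAD2 stood level in shCdGAP cells and TEAD2 was ahead in shCon cells.

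Of the LATS kinases, which restrain YAP and TAZ, LATS2 fell and LATS1 did not pass. LATS2 (ENSG00000150457, chr13:20973032-21061547) had 352, 457 and 279 reads in shCdGAP and 735, 665 and 560 reads in shCon libraries, or 8.68, 10.5 and 8.12 CPM against 17.5, 15.8 and 16.9 CPM. No shCdGAP library reached the lowest shCon library. The log2 fold change was -0.88 ± 0.0996 (standard error, edgeR adjusted p = 7.82e-05), and -1.0 without shCdGAP replicate 2, the highest of its group (adjusted p = 1.39e-15). LATS1 (ENSG00000131023, chr6:149658153-149718256) had 65.6, 59.8 and 65.7 CPM in shCdGAP and 59.4, 57.7 and 56.0 CPM in shCon libraries. The groups lay side by side without overlap, replicate 2 being the shCdGAP library nearest to shCon. LATS1 did not pass, with a log2 fold change of 0.14 ± 0.0492 (standard error, edgeR adjusted p = 0.0328), but did without that library (0.18, adjusted p = 3.00e-05). LATS1 was thus 4.54 times LATS2 per length in shCdGAP and 2.23 times in shCon cells (geometric means), a log2 difference of 1.03 (exact permutation p = 0.1, 0.133 adjusted over 4 ratios).

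The angiomotins AMOTL1 and AMOTL2 are junction proteins that hold YAP outside the nucleus. AMOTL2 (ENSG00000114019, chr3:134355874-134375479) had 381, 404 and 349 reads in shCdGAP and 1337, 1444 and 1134 reads in shCon libraries, or 9.40, 9.28 and 10.2 CPM against 31.9, 34.2 and 34.3 CPM. It was the gene of the group that differed most, and the spread within each group was small beside the gap. The log2 fold change was -1.80 ± 0.0613 (standard error, edgeR adjusted p = 6.40e-08), which is -71.3% in CPM, and -1.79 without shCdGAP replicate 2. It was the only one of the 9 genes to pass with an absolute log2 fold change above 1. Of all tested genes 12.8% did so, 4.19% in the lower and 8.56% in the higher direction. Without shCdGAP replicate 2, LATS2 passed this limit as well, and the background was then 5.38% lower and 8.78% higher. The ribosomal protein pseudogene RPL39P5 overlaps AMOTL2 on the same strand and had 4 reads in all libraries together.

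AMOTL1 (ENSG00000166025, chr11:94706431-94876753) had 57.5, 61.8 and 50.8 CPM in shCdGAP and 72.0, 74.3 and 70.3 CPM in shCon libraries. It was lower in each shCdGAP library, with a wider spread than in shCon. The log2 fold change was -0.35 ± 0.0673 (standard error, edgeR adjusted p = 0.00196), and -0.42 without shCdGAP replicate 2. Per length, AMOTL1 was 3.51 times AMOTL2 in shCdGAP and 1.29 times in shCon cells, a log2 difference of 1.45 (exact permutation p = 0.1, 0.133 adjusted over 4 ratios). AMOT, the founding member of this family, had at most 3 reads in any library.

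CCN1 and CCN2 encode secreted matrix-associated proteins that are widely used as readouts of YAP and TEAD. CCN1 (ENSG00000142871, chr1:85580761-85583962) had 40.5, 42.8 and 41.3 CPM in shCdGAP and 48.7, 54.4 and 48.7 CPM in shCon libraries. CCN2 (ENSG00000118523, chr6:131948176-131951373) had 23.8, 19.2 and 22.3 CPM against 27.3, 27.7 and 27.4 CPM. For both genes all shCdGAP libraries lay below all shCon libraries, and the difference was modest. CCN1 fell by 18.0% (log2 fold change -0.29 ± 0.0547, standard error, edgeR adjusted p = 0.00179), and its log2 fold change was -0.32 without shCdGAP replicate 2. CCN2 fell by 20.9% (log2 fold change -0.34 ± 0.0767, standard error, edgeR adjusted p = 0.00458). CCN2 did not pass in a fit that lacked any single shCon library (edgeR adjusted p from 0.0163 to 0.0184), and without shCdGAP replicate 2 its log2 fold change was -0.26 (adjusted p = 1.61e-05). The log2 ratio of CCN1 to CCN2 differed by 0.06 between the groups (exact permutation p = 0.8, also when adjusted over 4 ratios), and by -0.05 without that library.

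ANKRD1 (ENSG00000148677, chr10:90912096-90921276), a muscle-enriched nuclear ankyrin repeat protein and a further common YAP readout, had 2 reads in shCon replicate 1 and none in the other 5 libraries. It was too low to be tested and no fold is given, so a change was not detectable at this depth. Its promoter holds GGAATG as those of CCN2 and YAP1 do, and in these cells its level was near 0 in both groups.

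**Figure D2:**
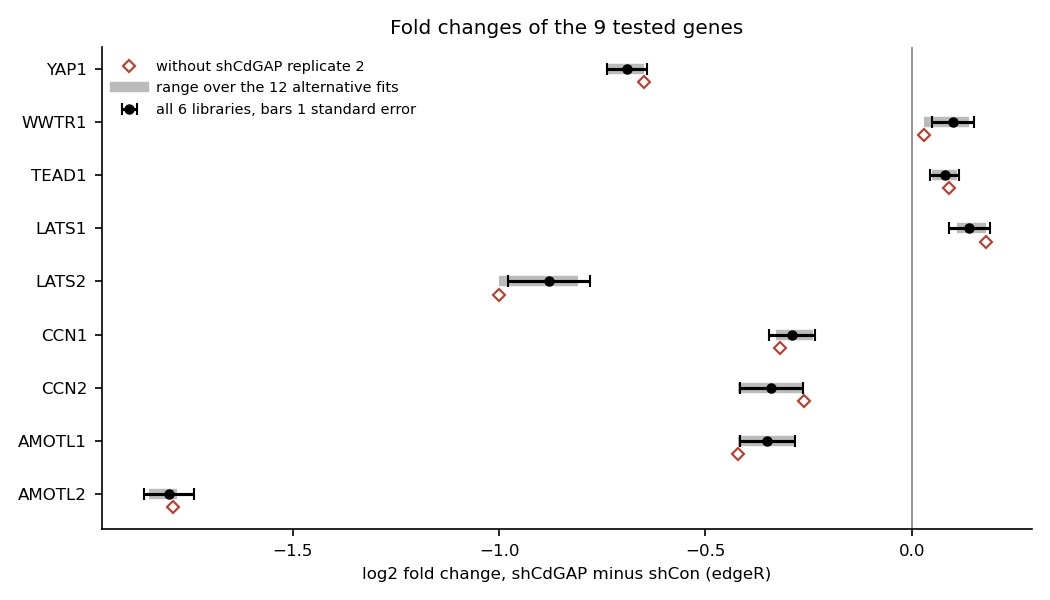
Log2 fold changes (shCdGAP minus shCon, edgeR) of the 9 tested genes, with bars of 1 standard error, open diamonds for the fit without shCdGAP replicate 2 and grey bands for the range over 12 alternative fits. AMOTL2, LATS2 and YAP1 lie farthest below 0, and WWTR1, TEAD1 and LATS1 lie between 0.03 and 0.18 in every fit.

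Per length, the order of the genes in shCon cells was WWTR1 (29.6 ± 0.471 RPKM), YAP1 (25.4 ± 0.428), CCN1 (20.6 ± 1.35), TEAD1 (16.8 ± 0.454), CCN2 (11.7 ± 0.0745), AMOTL1 (7.20 ± 0.201), LATS1 (6.67 ± 0.194), AMOTL2 (5.59 ± 0.232), LATS2 (3.00 ± 0.161) and ANKRD1 (SD, n = 3 each). No neighbours in this order overlapped in their ranges. In shCdGAP cells WWTR1 was again first (31.8 ± 2.30 RPKM), followed by TEAD1 (17.8 ± 0.308), CCN1 (16.9 ± 0.476), YAP1 (15.8 ± 0.954) and CCN2 (9.30 ± 1.01). LATS1 (7.37 ± 0.394) then stood above AMOTL1 (5.65 ± 0.555), and LATS2 (1.63 ± 0.222) and AMOTL2 (1.61 ± 0.0796) closed the order before ANKRD1. The ranges of CCN1 and YAP1 overlapped there, as did those of LATS2 and AMOTL2. YAP1 thus went from rank 2 to rank 4 in the order. These levels divide by the summed exon length of the annotation, which includes exons that PC-3 cells may not use.

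**Figure D3:**
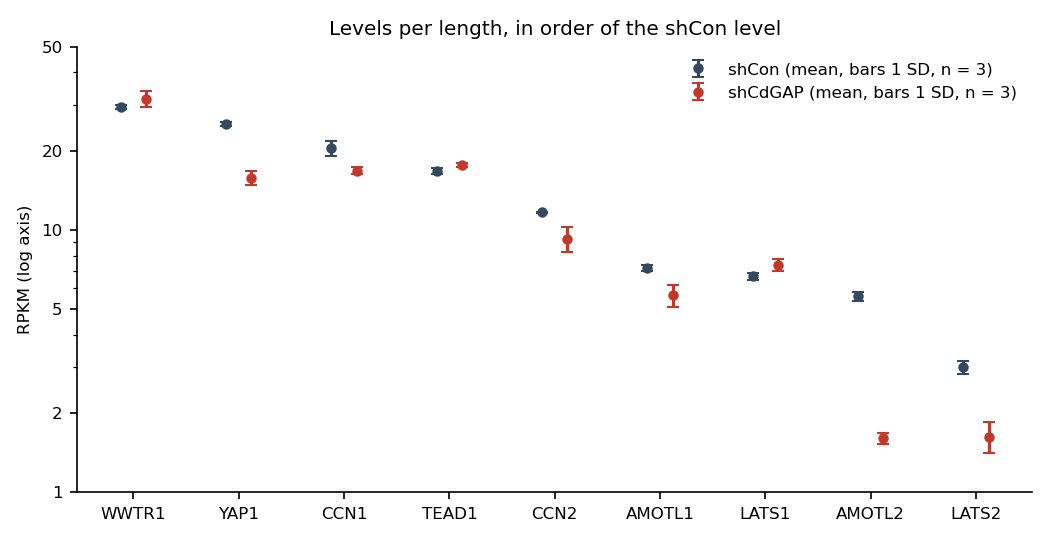
Levels per length (RPKM, log axis) of the 9 tested genes in shCon (dark) and shCdGAP (red) cells, as means with bars of 1 SD (n = 3), ordered by the shCon level. The order runs from 29.6 RPKM for WWTR1 to 3.00 for LATS2 in shCon cells, and AMOTL2 and LATS2 are level in shCdGAP cells.

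Each gene was set beside its chromosomal neighbours, to see whether the genes around it differed in the same direction. The 10 nearest tested genes on each side of YAP1 had a median log2 fold change of 0.38, with 10 of 20 passing higher and none lower, and 1 of the 20 had a lower log2 fold change than YAP1. That gene, ENSG00000277459, starts next to YAP1 and did not pass (-1.07). On one side of YAP1 lies the matrix metalloproteinase cluster, where MMP7, MMP10, MMP1, MMP3 and MMP13 had log2 fold changes from 1.94 to 5.76. These were named after their values were seen. The neighbours of AMOTL2 had a median of -0.03, with 6 of 20 passing lower and 4 higher, and a single neighbour was lower than AMOTL2 itself. LATS2, which lies on chromosome 13, had neighbours with a median of -0.27, 14 of 20 being lower, 8 passing lower and 4 passing higher, where 22% and 24.1% of all genes did. LATS2 stood below 19 of these 20 genes, and the part of the surrounding stretch in its fall was not tested. For the other genes the neighbours' medians lay between -0.10 (WWTR1) and 0.22 (LATS1).

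**Figure D4:**
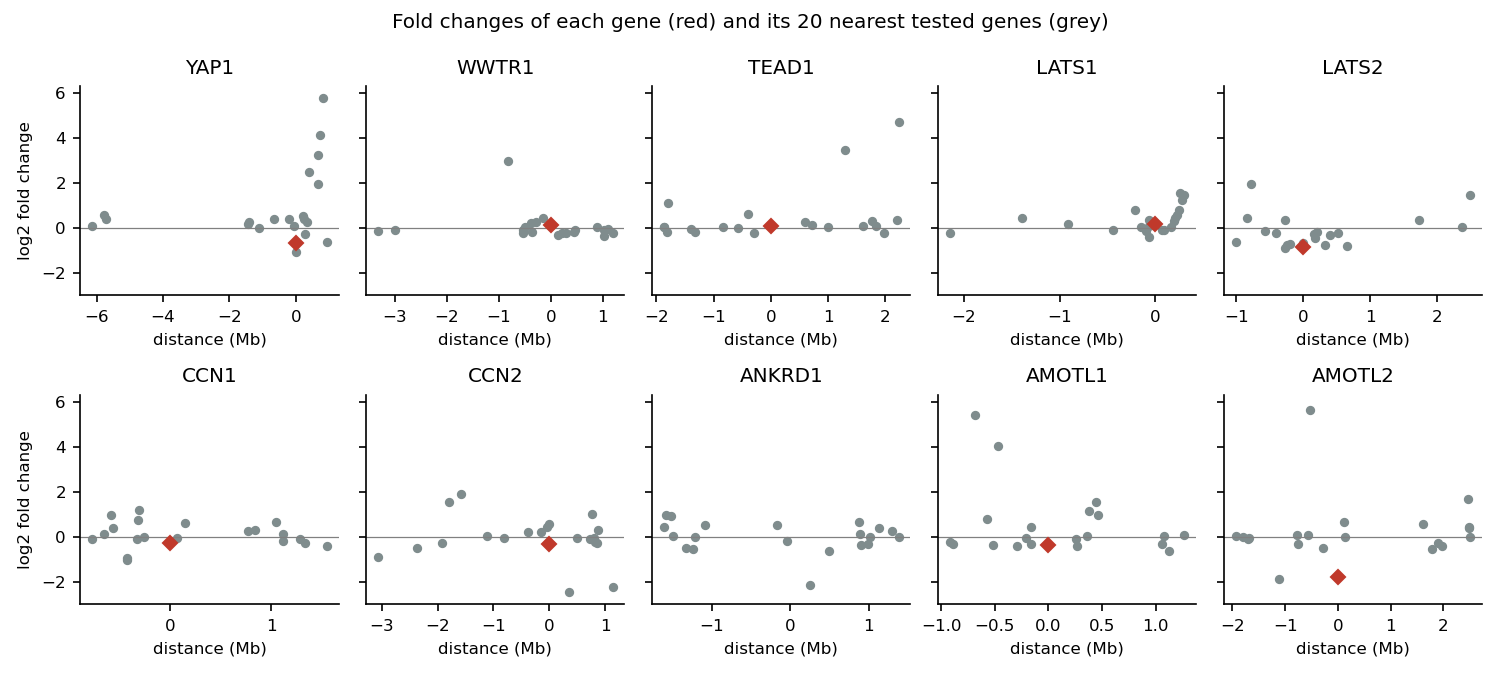
Log2 fold change (shCdGAP minus shCon, edgeR) of each gene (red diamond, not drawn for the untested ANKRD1) and of the 10 nearest tested genes on each side (grey), against the distance between gene starts in Mb. YAP1, LATS2 and AMOTL2 each have 1 neighbour below them, and the neighbours of LATS2 have a median of -0.27.

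Among 30 further genes that act upstream in the pathway, 28 were tested, and 8 fell and 7 rose. These 15 genes were 53.6% of those tested, near the 46.2% of all genes (22% lower, 24.1% higher), and the median log2 fold change of the 28 was 0.11. Without shCdGAP replicate 2, 10 were lower and 12 higher, or 78.6% against 60.0% of all genes. In the fit to all libraries, 4 of the 28 fell and 1 rose with an absolute log2 fold change above 1. Of all tested genes, 4.19% fell and 8.56% rose past this limit. WWC3, one of the KIBRA-family scaffolds that promote LATS activity, had 3, 12 and 3 reads in shCdGAP and 376, 374 and 310 reads in shCon libraries. The gene was nearly silent in CdGAP-depleted cells, with a log2 fold change of -5.87 ± 0.256 (standard error, edgeR adjusted p = 2.38e-07), or -6.77 without shCdGAP replicate 2. TNIK, a kinase related to those that activate LATS, fell to 18.0 ± 4.61 CPM from 47.0 ± 1.23 CPM in shCon cells (SD, n = 3 each), with a log2 fold change of -1.38, or -1.63 without shCdGAP replicate 2. The protocadherin FAT1 fell by 1.15 (by 1.27 without that library) and AJUBA, a LIM protein that binds and restrains LATS, by 1.01 on the log2 scale. FRMD6, a FERM-domain protein placed upstream of the kinases, rose from 39.8 ± 0.383 to 107 ± 1.69 CPM (SD, n = 3 each), with a log2 fold change of 1.43 ± 0.0360 (standard error, edgeR adjusted p = 1.87e-08). AMOT and DCHS1, with at most 8 reads in any library, were not tested.

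TEAD factors also bind the VGLL cofactors. Of the 8 TEAD and VGLL genes 7 were tested, 2 fell and 1 rose, which is 42.9% against 46.2% of all genes, while their median log2 fold change was -0.01. The gene that rose was VGLL2, from 2.14 ± 0.0376 to 8.02 ± 1.55 CPM (SD, n = 3 each), with a log2 fold change of 1.90 ± 0.155 (standard error, edgeR adjusted p = 1.00e-05). Without shCdGAP replicate 2, 6 of the 7 passed, 3 in each direction, where 60.0% of all genes did. VGLL1 had 1 read in all and was not tested.

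A list of 22 YAP target genes in common use holds CCN1, CCN2, ANKRD1, AMOTL2 and LATS2 together with 17 others. Of the 22, 20 were tested, 10 fell and 5 rose, with a median log2 fold change of -0.26. Of all tested genes 22% passed lower and 24.1% higher. Without these 5 genes, 6 of 16 fell, 5 rose and the median was -0.04. Without shCdGAP replicate 2, 12 of the 20 passed lower and 6 higher, where 30% of all genes passed in each direction. The lowest value was that of TGFB2, a TGF-beta ligand, at a log2 fold change of -2.25, or -2.61 without shCdGAP replicate 2. RBMS3, an RNA-binding protein, fell by 1.43 on the log2 scale at a low level of 3.59 ± 0.235 to 1.34 ± 0.183 CPM. AXL, a receptor tyrosine kinase, had 28.0, 39.2 and 28.8 CPM in shCdGAP and 65.5, 67.6 and 63.0 CPM in shCon libraries. It fell by 1.03 on the log2 scale (by 1.22 without shCdGAP replicate 2), and replicate 2 was again the shCdGAP library nearest to shCon. In the other direction, IGFBP3, a binding protein of insulin-like growth factors, had 374, 352 and 382 CPM in shCdGAP and 74.8, 89.5 and 82.8 CPM in shCon libraries, a log2 fold change of 2.17 ± 0.0660 (standard error, edgeR adjusted p = 4.84e-08). F3, the tissue factor gene, had a log2 fold change of 1.03, or 0.86 without shCdGAP replicate 2. GADD45A, a stress-induced growth arrest gene, had a log2 fold change of 1.02. ANKRD1 and FOXF2, the latter without a read in any library, were not tested.

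Of the 6 genes of the CCN family 4 were tested, CCN1 and CCN2 falling and CCN3 and CCN4 rising, also without shCdGAP replicate 2. Of all tested genes 22% passed lower and 24.1% higher. CCN3, formerly NOV, went from 33.1 ± 1.07 to 49.7 ± 2.56 CPM (SD, n = 3 each), with a log2 fold change of 0.59 ± 0.0517 (standard error, edgeR adjusted p = 1.65e-05). CCN4, formerly WISP1, had 25, 77 and 20 reads in shCdGAP and 6, 7 and 3 reads in shCon libraries. Replicate 2 held most of these reads, and the log2 fold change was 2.86 with it and 2.10 without it (adjusted p = 0.00348 and 1.84e-05 by edgeR). Like CCN2, it did not pass in a fit that lacked any single shCon library (edgeR adjusted p from 0.0152 to 0.0169). CCN5 had 1 to 12 reads and CCN6 at most 1 read per library.

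**Figure D5:**
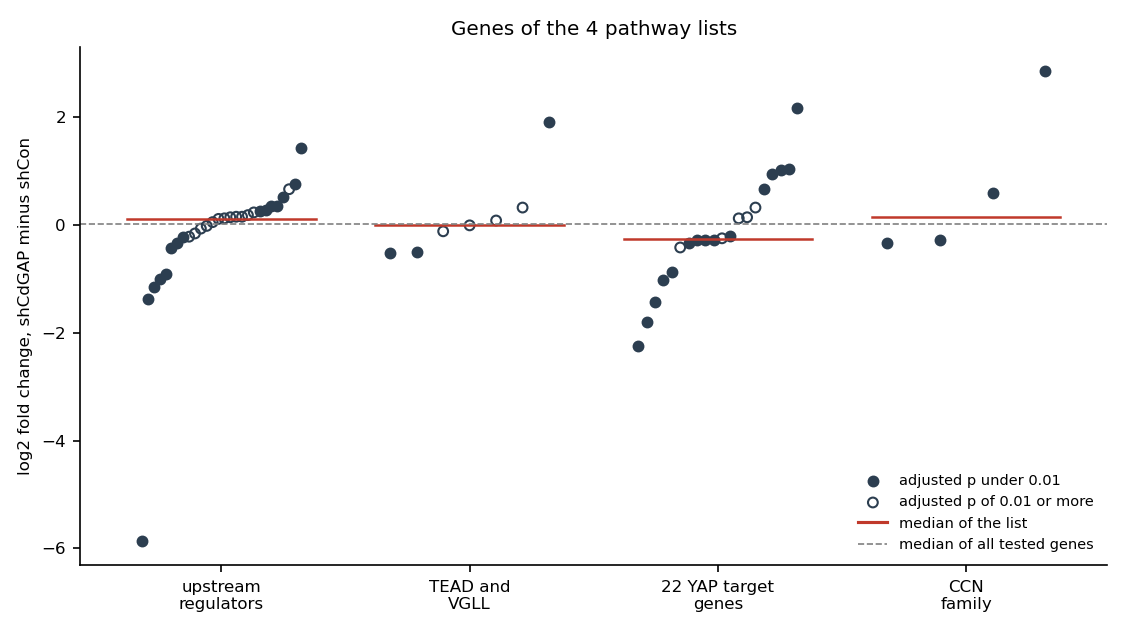
Log2 fold changes (shCdGAP minus shCon, edgeR) of the tested genes in 4 pathway lists, sorted within each list, filled where the adjusted p was under 0.01 and open otherwise, with red lines at the list medians and a dashed line at the median of all tested genes (0.01). Every list holds genes on both sides of 0, and WWC3 is the point near -5.87.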

How the data were processed

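RNA-seq libraries of 3 shCdGAP and 3 shCon samples of PC-3 cells were compared. The authors deposited raw counts per gene, made by alignment to GRCh38 with STAR 2.5.1b and counting with featureCounts (1.6.0 per the file headers, 1.4.6 in the methods) on Ensembl release 77. Per the file headers, read pairs with both ends mapped were counted by strand, without the options that admit reads of several loci or genes. Gene lengths and positions are those of the deposited tables. Of 64253 genes, 16439 passed edgeR's filterByExpr. Counts were scaled by TMM and tested with edgeR 4.0.16 (robust quasi-likelihood F test, no pairing, Benjamini-Hochberg adjustment over all tested genes, R 4.3.3), calling an adjusted p under 0.01. The fold limit was an absolute log2 fold change above 1. Standard errors are the absolute log2 fold change over the square root of F. Ratios were tested with scipy 1.17.1. The 10 genes and the lists were chosen with earlier results of these data known. Genes named are the 10 genes, their paralogs, and in each list those past the fold limit and the highest and lowest. On counts simulated from these libraries for this comparison, the test called 65 of 88 genes changed by 1 and 103 of 111 changed by 2 on the log2 scale, and 4 of 16016 unchanged genes. The simulation changed few genes and drew each gene independently. It held no library that stands apart across genes, as shCdGAP replicate 2 did, so its rates may not hold for the real counts. Alternatives were DESeq2 1.42.0, other scalings, filters and thresholds, a block for the replicate number, and fits that lack 1 library. P-values weigh the difference between the groups against the spread between these libraries, and edgeR draws each gene's spread toward that pooled over genes. Leaving out a library changes this pooled spread too. The adjusted p-values of such fits are therefore not a measure of a gene's own spread alone. The methods name 1 hairpin against CdGAP for PC-3 cells, so a spread between hairpins is not covered. Whether the libraries cover a spread between clones is not stated.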

Additional observations from a re-analysis of the deposited data

How the results depend on the processing

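Of 108 alternative values of the 9 tested genes (12 fits each), 103 kept their direction and side of the threshold and none changed direction. YAP1 ranged from -0.74 to -0.65, LATS2 from -1.0 to -0.81 and AMOTL2 from -1.85 to -1.78 on the log2 scale. With libraries left out in turn, CCN2 ranged from -0.42 to -0.26 and did not pass without any one shCon library (-0.36, -0.35 and -0.35). TEAD1 ranged from 0.05 to 0.09 and LATS1 from 0.11 to 0.18, both passing without shCdGAP replicate 2 (0.09 and 0.18). With library size only, TEAD1 was at 0.11. Fewer samples enter these fits, and the cause was not tested.

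With 1 library left out, the genes of the group past the fold limit numbered 1 to 2, the TEAD and VGLL genes that passed 3 to 6, and the CCN genes 2 to 4, with 0 to 1 past the fold limit. The last number was also 0 with at least 10 reads in every library, a filter that CCN4 does not meet. Among the upstream genes 12 to 22 passed with 1 library left out. Past the fold limit 3 fell, against 4 in the main fit, with library size only, the stricter filter and without shCdGAP replicate 3. Of the 22 target genes, 4 fell and 3 rose past this limit in the main fit. These numbers were 4 and 1 without shCon replicate 1, and 3 and 4 without shCdGAP replicate 1. TEAD3, near 0 throughout, changed sign with upper-quartile scaling (0.00), library size only (0.02), the stricter filter (0.00), and without shCdGAP replicate 3 (0.05) or shCon replicate 2 (0.00), in a range of -0.09 to 0.05 with 1 library left out. The ratio of CCN1 to CCN2 ranged from -0.05 (without shCdGAP replicate 2, a change of sign) to 0.15 with 1 library left out.

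With the replicate number as a block, 6 of the 9 genes passed, all lower, and 16 of the 22 target genes against 15 without it. Same-numbered libraries deviated together with correlations of 0.0306, 0.0499 and 0.0469. Those of differently numbered libraries were lower, from -0.0741 to 0.0275. All were small and the methods describe no pairing, so the number was not taken as a pairing. With up to 20 neighbours on each side, the median was 0.12 around YAP1, -0.25 around LATS2, 0.10 around LATS1 and -0.13 around CCN2. Around the other genes it lay between -0.09 (WWTR1) and 0.11 (CCN1). Other scalings moved the median of all genes to at most 0.03. At 3 libraries per group, ANKRD1 and AMOT are below what these depths can compare.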
